A study of Mus musculus with 8 samples.

Results

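Complement is a cascade of plasma and tissue proteins that marks microbes and dying cells for uptake and calls in leukocytes. C1q, built from the chains A, B and C, starts the classical pathway, C4 and factor B supply parts of the convertases that cleave C3, properdin stabilises the alternative convertase, and the small fragments C3a and C5a act through their own receptors. In the gut wall C1q is made mainly by macrophages, whereas factor B is also made by epithelial cells. The genes described here are the complement components C1qa, C1qb, C1qc, C3, C4b, Cfb and Cfp and the anaphylatoxin receptors C3ar1 and C5ar1, taken by name, with the brightest probe set kept where a gene had several. Of these 9 genes, 8 were measured by 1 probe set each among 19505 genes tested, and C3 was not analysed here.

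RNA came from whole colon of BALB/c mice in which transplanted donor T cells attack the host, a model of acute graft-versus-host disease. The hBD-2 group (4 mice) received human beta-defensin 2, an antimicrobial peptide of epithelial cells, by mouth at 1.2 mg/kg from day 0 to day 7, and the PBS group (4 mice) received PBS in the same way. Every mouse in both groups had wild-type BALB/c genotype and had been lethally irradiated and transplanted with C57BL/6 bone marrow and T cells on day 0. Colon was taken on day 7, and no mouse without transplant or without disease was among the samples. Values are log2 expression from 1 array per mouse, and differences are log2 values, hBD-2 minus PBS. The labels do not say whether the mice of a group shared a cage or a donor. In whole tissue, fewer cells of a type and less RNA per cell cannot be told apart.

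The epithelial markers of the labelled tissue were all measured, with Epcam at 12.08 in hBD-2 and 12.05 in PBS colons on average. On the first principal component of all genes (34.6% of the variance), hBD-2 1 lay at 25.2 and hBD-2 3 at 25.4, away from the remaining arrays at -14.9 to -2.45. In hBD-2 1 and hBD-2 3 the posterior colon markers, a list of 6 Hox genes, averaged 0.73 and 0.67 log2 units above each gene's mean. The other arrays lay at -0.060 and -0.11 in the hBD-2 group and between -0.36 and -0.25 in the PBS group. The groups thus did not overlap on this list. The height of hBD-2 1 and hBD-2 3 rested mainly on Hoxb13, at 9.06 and 9.32, and Hoxd13, at 6.20 and 6.03. Hoxd10 was instead lower in these arrays, at 4.69 and 4.63, than in hBD-2 2 and hBD-2 4, at 5.93 and 5.55. Hoxd12 was higher in every hBD-2 than in every PBS mouse, with a difference of 0.36, and of 0.39 without hBD-2 1 and hBD-2 3. Without this pair 3 of the 6 genes were lower and 3 higher, from -0.79 for Hoxb13 to 1.20 for Hoxd10. The intestinal factor Cdx2 averaged 9.86 in hBD-2 and 10.16 in PBS colons, a difference of -0.30 that was 0.10 with these arrays left out. Values without hBD-2 1 and hBD-2 3 are therefore given beside the members and most of the gene lists. Leaving them out does not even out the PBS group, which was itself split on single Hox genes. There Hoxb13 stood at 4.73, 5.14, 7.22 and 6.76 in PBS mice 1 to 4. Hoxd11 went the other way, at 6.59, 6.16, 4.61 and 4.85.

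C1qb and C1qc lie next to each other on mouse chromosome 4, with C1qa as the next gene, and their promoters are shown because the C1q genes varied together across the arrays. The sequences are the 250 bases before the annotated start in RefSeq (GRCm38.p6), on the gene's strand, which is the minus strand for both. The C1qb window is chr4:136886201-136886450 and the C1qc window is chr4:136892915-136893164. Capitals mark GAGGAA, a core bound by the myeloid factor PU.1 and other ETS factors, on either strand (TTCCTC on the other).
C1qb: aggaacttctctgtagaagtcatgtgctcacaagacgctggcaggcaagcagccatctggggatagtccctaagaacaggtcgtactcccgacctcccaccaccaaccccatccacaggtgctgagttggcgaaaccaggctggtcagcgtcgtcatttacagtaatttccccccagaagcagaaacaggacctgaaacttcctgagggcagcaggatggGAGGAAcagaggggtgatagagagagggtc
C1qc: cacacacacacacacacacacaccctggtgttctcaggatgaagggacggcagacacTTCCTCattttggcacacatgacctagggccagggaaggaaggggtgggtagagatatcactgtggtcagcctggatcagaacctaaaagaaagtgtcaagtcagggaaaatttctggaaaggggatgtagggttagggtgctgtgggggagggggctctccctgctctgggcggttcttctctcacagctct
The match ended 25 bases before the start in C1qb, on the gene's strand, and lay 193 to 188 bases before it in C1qc, on the opposite strand. Such a match was present in 23.3% of the 32851 RefSeq windows of this length, so that it does not set these genes apart. The letters TTGCNNAA of a C/EBP motif, present in 9.56% of windows on either strand, were not found in either window, and no match to the 2 motifs was found in the windows of C3ar1, C5ar1 and Cfp. Windows of the other measured members were not used here.

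All 8 measured genes had a lower mean in the hBD-2 group, by 0.10 to 0.66 log2 units with a median of -0.42, against a median of 0.012 over all genes tested. None passed an adjusted p of 0.05 over all genes by limma, which 0.0410% of genes did (8 of 19505). At an unadjusted p under 0.05 limma had 6 of the 8 lower and 0 higher, where 5.98% of all genes were lower and 5.85% higher. In 5 of the 8, namely C1qa, C1qb, C1qc, C4b and Cfp, every hBD-2 value was under every PBS value, against 3.60% of all genes (2.80% had the hBD-2 values all above). Without hBD-2 1 and hBD-2 3 all 8 differences were still negative, with a median of -0.26, and 4 had an unadjusted p under 0.05 by limma (5.48% of all genes lower at that level). In 6 of the 8, both remaining hBD-2 values were then under every PBS value, as in 9.97% of all genes with these fewer mice.

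**Figure D1:**
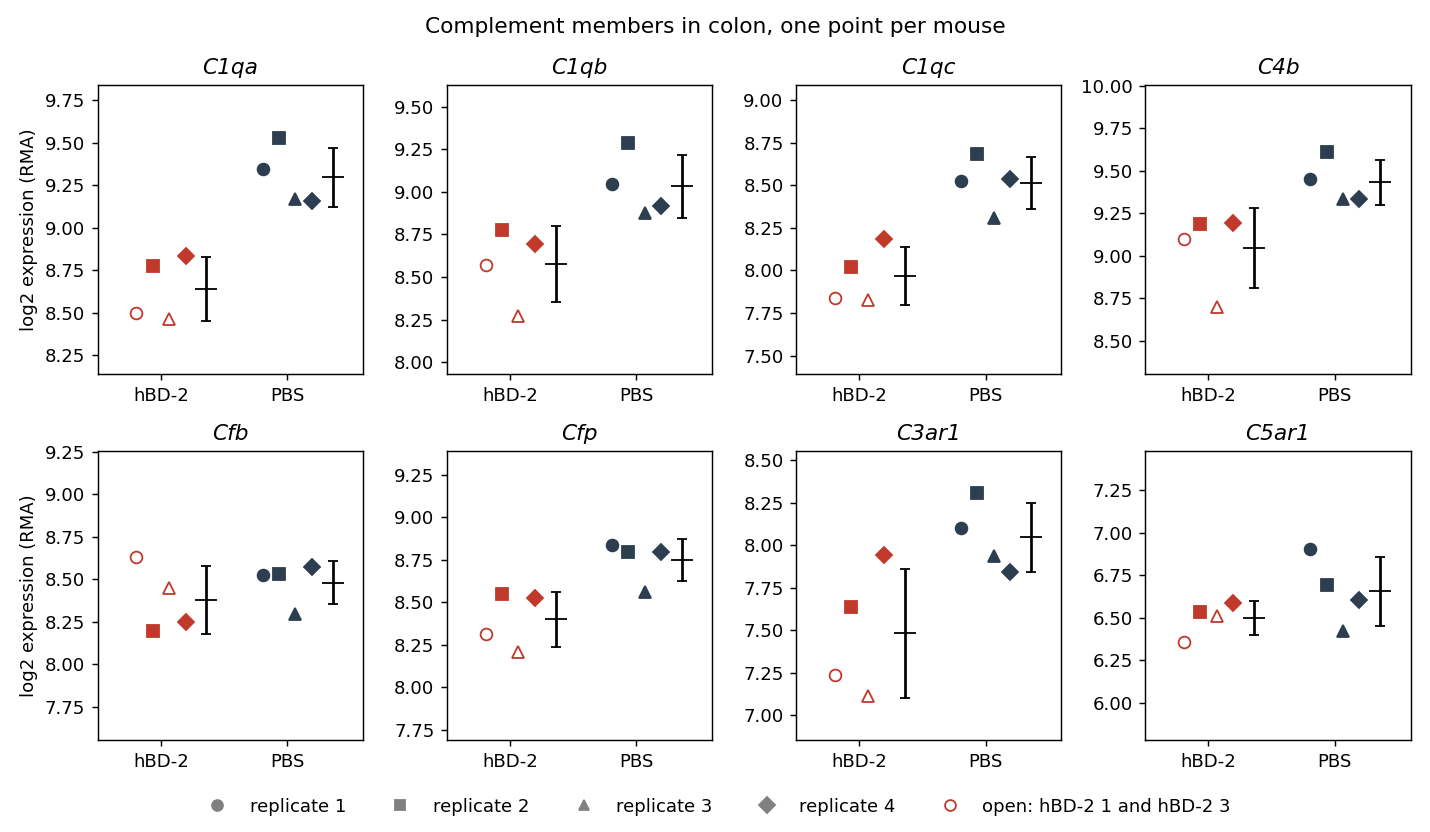
Log2 expression (vertical axis, each panel spanning the same 1.7 log2 units) of the 8 measured complement genes, with hBD-2 mice at the left and PBS mice at the right of each panel. Each point is 1 mouse, symbols give the replicate number, open red points are hBD-2 1 and hBD-2 3, and black bars are the mean and SD (n = 4). The groups are separate for C1qa, C1qb, C1qc, C4b and Cfp and overlap for Cfb, C3ar1 and C5ar1.

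C1q is the recognition molecule of the classical pathway, and the largest difference among the measured members was that of C1qa, which encodes its A chain. C1qa stood at 8.50, 8.77, 8.46 and 8.83 in hBD-2 mice 1 to 4, against 9.34, 9.52, 9.17 and 9.16 in PBS mice 1 to 4. The groups did not overlap, and within the hBD-2 group the lowest values were those of hBD-2 1 and hBD-2 3. The difference was -0.66 (SE 0.12, 95% interval -0.91 to -0.40), a 1.58-fold lower mean in the hBD-2 mice, with an adjusted p of 0.0782 by limma. The means were 8.64 ± 0.19 in hBD-2 and 9.30 ± 0.17 in PBS mice (SD, n = 4 each).

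C1qc, the C chain, stood at 7.84, 8.02, 7.83 and 8.19 in hBD-2 mice 1 to 4, against 8.53, 8.68, 8.31 and 8.54 in PBS mice 1 to 4. Its highest hBD-2 value, in hBD-2 4, was below its lowest PBS value, in PBS 3. The difference was -0.55 (SE 0.11, adjusted p = 0.104 by limma), or 1.46-fold. C1qb, the B chain, stood at 8.57, 8.78, 8.27 and 8.69 in hBD-2 mice 1 to 4, against 9.05, 9.29, 8.87 and 8.92 in PBS mice 1 to 4. The groups were again separate, though hBD-2 2 came close to PBS 3. Its difference was -0.46 (SE 0.13, adjusted p = 0.219 by limma), or 1.37-fold. Without hBD-2 1 and hBD-2 3, C1qa was at -0.50, C1qc at -0.41 and C1qb at -0.30, the last 1.53 times smaller than over all arrays. In that setting the unadjusted p by limma was 0.00296 for C1qa, 0.00774 for C1qc and 0.0453 for C1qb, and the adjusted p was 0.189, 0.232 and 0.380.

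C4b encodes complement C4, which the C1 protease C1s cleaves to build the classical C3 convertase. It stood at 9.10, 9.19, 8.70 and 9.19 in hBD-2 mice 1 to 4, against 9.45, 9.61, 9.34 and 9.33 in PBS mice 1 to 4. The groups did not overlap, and hBD-2 3 was the lowest of all. The difference was -0.39 (SE 0.12, adjusted p = 0.254 by limma), or 1.31-fold, and -0.24 without hBD-2 1 and hBD-2 3. C4a, a closely related copy whose transcripts probes for C4b could also bind, stood at -0.27 (SE 0.16), and at -0.18 without the pair, so that the share of each copy in the signal is uncertain.

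Cfb, the protease of the alternative C3 convertase, had the difference closest to 0. It stood at 8.63, 8.19, 8.45 and 8.25 in hBD-2 mice 1 to 4, against 8.53, 8.53, 8.29 and 8.57 in PBS mice 1 to 4. The highest value of all was in hBD-2 1 and the lowest in hBD-2 2, so that the groups overlapped. The difference was -0.10 (95% interval -0.34 to 0.14, adjusted p = 0.750 by limma). Here the pair of arrays moved the value the other way: without hBD-2 1 and hBD-2 3 it was -0.26 (SE 0.11, unadjusted p = 0.0370 and adjusted p = 0.358 by limma). With single arrays left out it lay between -0.18, without hBD-2 1, and -0.038, without hBD-2 2. Cfp, which encodes properdin, the stabiliser of the alternative convertase made by myeloid cells, stood at 8.31, 8.55, 8.21 and 8.52 in hBD-2 mice 1 to 4, against 8.83, 8.79, 8.56 and 8.79 in PBS mice 1 to 4. The groups were separate by a narrow margin, hBD-2 2 lying just under PBS 3, which was itself low for its group. The difference was -0.35 (SE 0.10, adjusted p = 0.227 by limma), or 1.27-fold, and -0.21 without the pair.

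The anaphylatoxin receptors both had overlapping groups. C3ar1, the receptor for C3a on myeloid cells, stood at 7.24, 7.63, 7.11 and 7.94 in hBD-2 mice 1 to 4, against 8.10, 8.31, 7.93 and 7.84 in PBS mice 1 to 4. The hBD-2 group was spread widely, with hBD-2 1 and hBD-2 3 lowest and hBD-2 4 above both PBS 3 and PBS 4. The difference was -0.56 (SE 0.18, adjusted p = 0.257 by limma), or 1.48-fold, and -0.26 (SE 0.15) without hBD-2 1 and hBD-2 3. C5ar1, the receptor for C5a on neutrophils and macrophages, stood at 6.36, 6.53, 6.51 and 6.59 in hBD-2 mice 1 to 4, against 6.90, 6.69, 6.42 and 6.61 in PBS mice 1 to 4. The groups overlapped, PBS 3 being lower than all hBD-2 mice but hBD-2 1. The difference was -0.16 (95% interval -0.39 to 0.077, adjusted p = 0.586 by limma), -0.094 without hBD-2 1 and hBD-2 3, and -0.074 without PBS 1. Whether the receptors differ from each other in their difference between groups was not tested.

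An exact permutation test of single genes, two-sided, can give no p below 0.0286 with 4 mice against 4, and the 5 genes with separate groups reached it. It gave 0.0857 for C3ar1, 0.229 for C5ar1 and 0.400 for Cfb. With 19505 genes measured, that smallest p cannot pass an adjustment over all of them.

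Most members also varied together within the groups. After each group's mean was taken off, Pearson's r with the mean of the C1q genes over the 8 arrays was 0.92 for C3ar1, 0.88 for C4b, 0.84 for Cfp and 0.53 for C5ar1, but -0.29 for Cfb. These are descriptions, and all points share the arrays and their normalization. Relative to each gene's mean, the C1q genes averaged -0.37 and -0.49 in hBD-2 mice 1 and 3. Mice 2 and 4 averaged -0.15 and -0.10. PBS mice 1 to 4 stood at 0.30, 0.49, 0.11 and 0.20. Mice 1 and 3 of the hBD-2 group were lower on this mean and higher on the first principal component than mice 2 and 4. In the PBS group, mice 3 and 4 stood likewise to mice 1 and 2. Inside such pairs the order did not always hold, as hBD-2 2 was below hBD-2 4 on that component as well (-8.23 and -7.60). For PBS mice 1 to 4 that component was -14.9, -14.8, -2.69 and -2.45. Whether the members vary together apart from this split of the arrays was not tested. Of all genes with a proper name outside the list, the 5 whose log2 values were most like the mean of C1qa, C1qb and C1qc were P2rx7, Fcgr3, Myc, Pla2g7 and Fcgr4. Their Pearson's r over the 8 arrays ran from 0.982 to 0.992 and Spearman's rho from 0.952 to 1. With group means taken off r was 0.931 to 0.965, and without hBD-2 3 and PBS 2, the arrays farthest from the median of the C1q mean, it was 0.964 to 0.986. Fcgr3 and Fcgr4 encode activating Fc receptors of myeloid cells, P2rx7 an ATP-gated channel, Pla2g7 a secreted lipase of macrophages and Myc a growth-promoting transcription factor. Since they were chosen for this likeness, their own differences are a description. They ran from -1.09 for Fcgr4 to -0.33 for P2rx7, and none passed over all genes by limma (adjusted p 0.0874 to 0.183).

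The list of other complement genes held 43 names, of which 40 were measured. Of these, 28 had a lower and 12 a higher mean in the hBD-2 group, with a median difference of -0.15. None passed over all genes, 13 were lower and 0 higher at an unadjusted p under 0.05 by limma, and in 10 every hBD-2 value was under every PBS value. Of all genes tested, 5.98% were lower and 5.85% higher at that p, and 3.60% had the hBD-2 values all under. Without hBD-2 1 and hBD-2 3, counts at that p were 10 lower and 1 higher, and the median was -0.13. In that setting 1069 of all 19505 genes were lower (5.48%) and 1434 higher. These shares of all genes also apply to the counts for role groups and marker lists below.

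**Figure D2:**
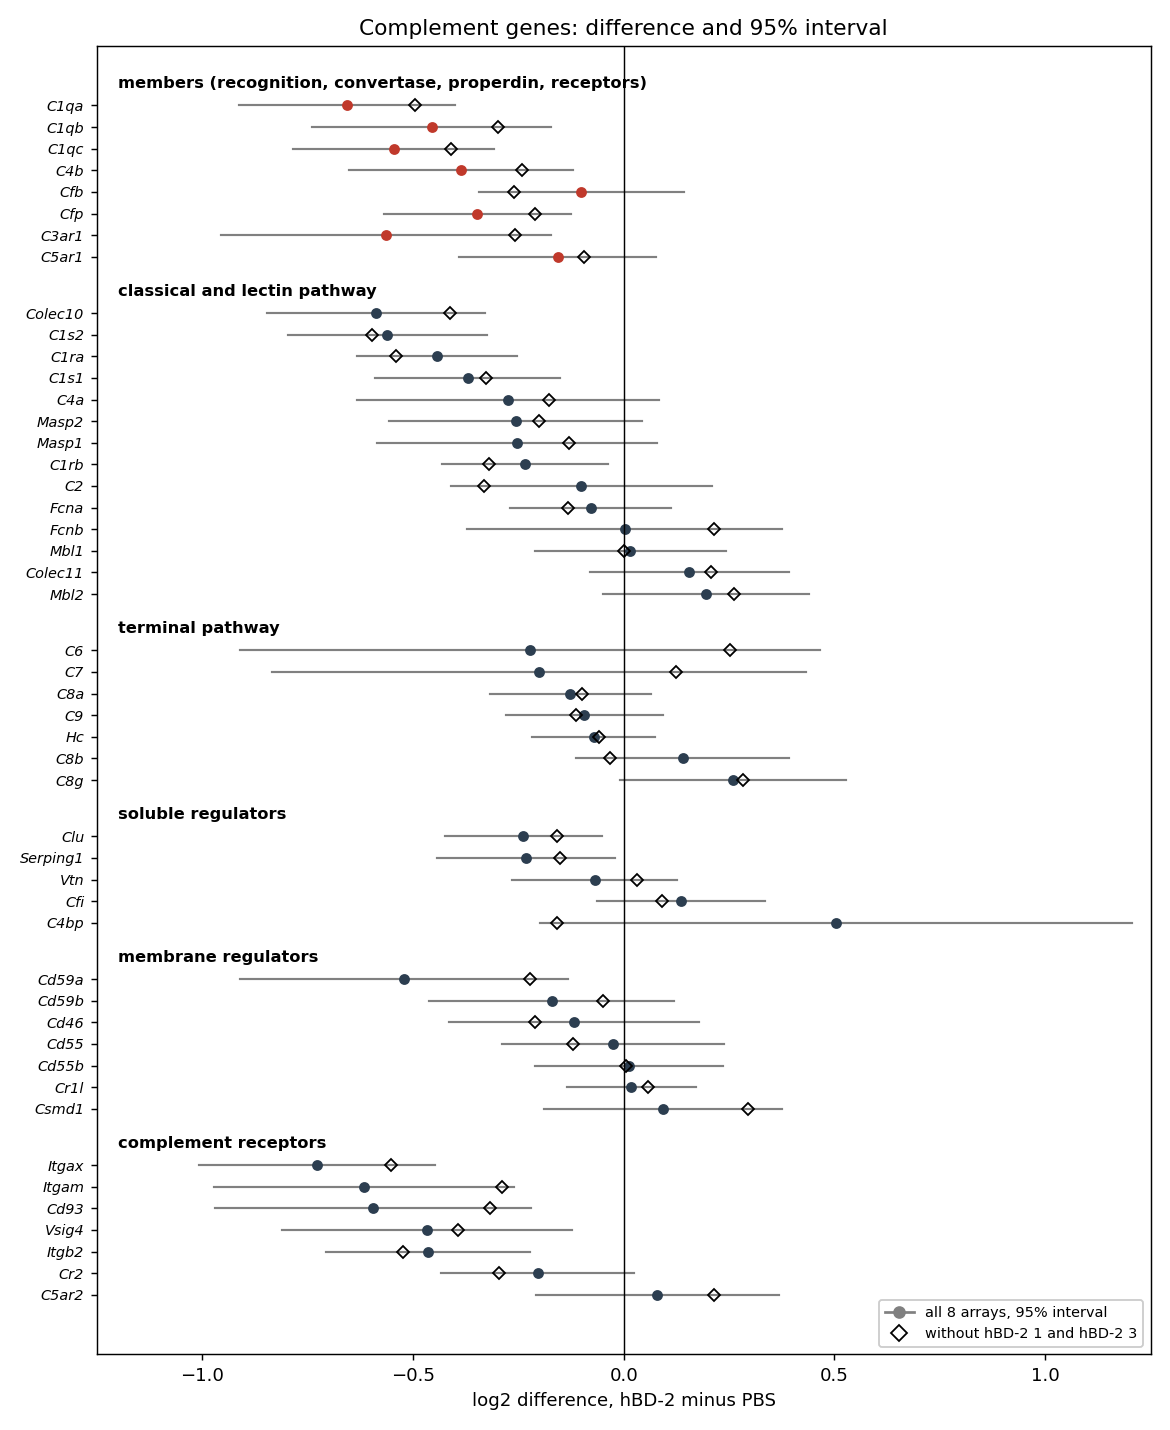
Log2 difference, hBD-2 minus PBS (horizontal axis), for the 8 measured members (red) and 40 other complement genes (dark blue) by role. Points are all 8 arrays, lines their 95% intervals from limma, and open diamonds the values without hBD-2 1 and hBD-2 3. Values left of 0 are lower in hBD-2 mice, as for the 8 members, the C1 proteases and most receptors, whereas the terminal pathway genes and most membrane regulators lie across 0.

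Among genes of the C1 proteases, of which C1s cuts C4 and C2 once C1q has bound, C1s2 and C1ra stood beside C1q in size. C1s2 had 8.00, 7.58, 7.85 and 8.11 in hBD-2 mice 1 to 4, against a narrow 8.43 to 8.46 in the 4 PBS mice. Its difference was -0.56 (SE 0.11, adjusted p = 0.0956 by limma). C1ra had 9.20, 8.86, 9.08 and 9.02 in hBD-2 mice 1 to 4, against 9.45, 9.58, 9.50 and 9.41 in PBS mice 1 to 4, a difference of -0.44 (SE 0.085, adjusted p = 0.0979 by limma). Both were separate between the groups, but the lowest array was hBD-2 2 and not hBD-2 1 or hBD-2 3, and without that pair they stood at -0.60 and -0.54. C1s1 and C1rb, their close copies, were at -0.37 and -0.23, and probes could bind both copies of a pair. Colec10, a collectin of the lectin pathway, was at -0.59 (SE 0.12, adjusted p = 0.107 by limma). In the classical and lectin group of 14 genes, 5 were lower and 0 higher at an unadjusted p under 0.05.

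Among the 7 complement receptors outside the member list, 5 were lower and 0 higher at an unadjusted p under 0.05, and in the same number the groups did not overlap. Itgax and Itgam, the alpha chains of the complement receptors CR4 and CR3 that bind cleaved C3, were at -0.73 (SE 0.13, adjusted p = 0.0782) and -0.62 (SE 0.16, adjusted p = 0.193) by limma, and their shared beta chain Itgb2 was at -0.46 (SE 0.11, adjusted p = 0.156). Itgam stood at 7.46, 8.05, 7.45 and 8.17 in hBD-2 mice 1 to 4, against 8.35 to 8.47 in the 4 PBS mice, and its difference was -0.29 without hBD-2 1 and hBD-2 3. Without this pair the median of the 7 receptors was -0.32, against -0.47 over all arrays. These integrins occur on leukocytes of several types, and Itgam also stands in the neutrophil list.

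The terminal pathway, whose products form the membrane attack complex, had 0 of 7 genes past an unadjusted p of 0.05 by limma, with a median of -0.094, which was -0.032 without hBD-2 1 and hBD-2 3. C8g was at 0.26 (SE 0.12), C8a at -0.13 (SE 0.086, and -0.060 without PBS 3) and C8b at 0.14 (SE 0.11), which became -0.032 without hBD-2 1 and hBD-2 3. Of the 5 soluble regulators measured, 2 were lower at that p and 0 higher, and without the pair 0 were past it. Clu, encoding clusterin, was at -0.24 (SE 0.084) and Serping1, the inhibitor of the C1 proteases, at -0.23 (SE 0.095), and at -0.16 and -0.15 without the pair. C4bp, a cofactor for the breakdown of C4b protein, had 6.20 and 6.30 in hBD-2 1 and hBD-2 3, against 4.82 and 5.03 in the other hBD-2 mice and 4.83 to 5.40 in the PBS mice. Its difference of 0.50 (SE 0.32) therefore rested on these arrays and was -0.16 without them.

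The membrane regulators, which protect the body's own cells, had 1 of 7 lower at an unadjusted p under 0.05 by limma and 0 higher, with a median of -0.025. Without the pair 0 were lower and 1, Csmd1, was higher at that p (0.29, against 0.093 over all arrays), with a median of -0.049. The gene past that p over all arrays was Cd59a, which blocks the membrane attack complex, at -0.52 (SE 0.18, adjusted p = 0.285), and at -0.22 without hBD-2 1 and hBD-2 3. Its copy Cd59b was at -0.17 (SE 0.13), -0.049 without the pair and -0.088 without PBS 1. Cd46 was at -0.12 (SE 0.13), -0.21 without the pair and 0.00043 without hBD-2 4.

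Markers of several cell types moved with the members. Of 11 macrophage markers measured, 7 were lower and 0 higher at an unadjusted p under 0.05 by limma, with a median of -0.45, and 1, Aif1, passed over all genes. Their mean relative to each gene's own mean was -0.32 to -0.084 in hBD-2 and 0.10 to 0.33 in PBS mice, without overlap, as it was for the C1q genes at -0.49 to -0.10 in hBD-2 and 0.11 to 0.49 in PBS mice. Not every macrophage marker was lower to that extent: Cd14 was at -0.055 (SE 0.098), the Fc receptor Fcgr1 at -0.042 (SE 0.095) and the chemokine receptor Cx3cr1 at 0.11 (SE 0.18). In the 6 arrays left by dropping hBD-2 1 and hBD-2 3 these were at -0.15, 0.0081 and -0.17, so that Fcgr1 and Cx3cr1 changed sign. With the pair left out, 3 macrophage markers were lower at that p, with a median of -0.27, and 0 passed over all genes. Fibroblasts are known to make C1r and C1s. Fibroblast markers had 7 of 7 lower at that p with a median of -0.52, 6 without the pair, and their means were -0.39 to 0.0093 in hBD-2 and 0.21 to 0.36 in PBS mice. Endothelial markers had 4 of 6 lower, with a median of -0.39, which was -0.25 without the pair. Their means overlapped between the groups, at -0.39 to 0.11 in hBD-2 and 0.033 to 0.25 in PBS mice.

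Of 7 neutrophil markers 4 were lower at an unadjusted p under 0.05 by limma (2 without the pair), and the groups overlapped, with means of -0.51 to 0.056 in hBD-2 and -0.29 to 0.61 in PBS mice. Of 7 T cell markers 2 were lower at that p (5 without the pair), and the groups overlapped as well, at -0.44 to 0.099 in hBD-2 and -0.12 to 0.26 in PBS mice. The 8 epithelial markers had 0 past an unadjusted p of 0.05 by limma, as without the pair, and a median of 0.024, which was 0.011 without it. No gene of the hepatocyte list, which holds liver genes such as Alb (4.96 in hBD-2 and 4.91 in PBS mice), was past that p, and of 6 adipocyte markers 1, Fabp4, was lower and 0 higher. Without the pair 0 adipocyte markers were lower and 2, Lep and Plin1, were higher at that p, and the median was 0.14, against 0.023 over all arrays. The part that cell numbers or the position of the colon segment have in the member differences was not tested.

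**Figure D3:**
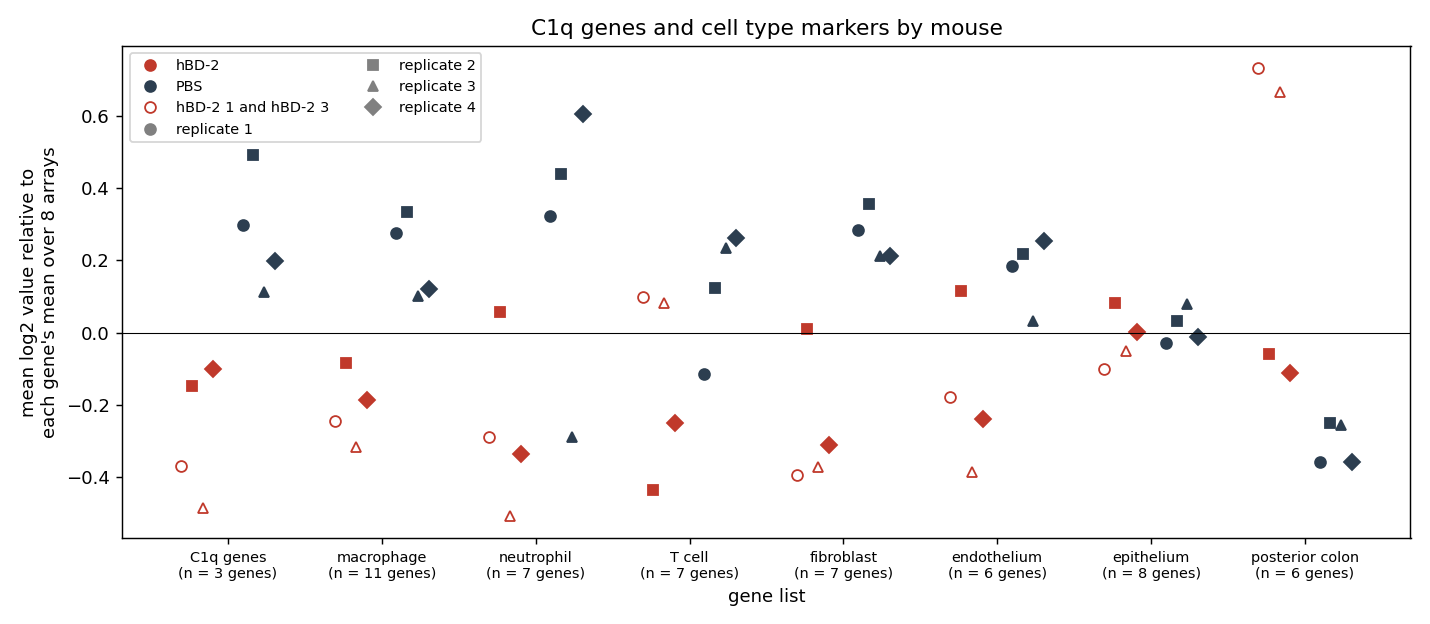
Mean log2 value of each gene list relative to each gene's own mean over the 8 arrays (vertical axis), for the C1q genes and 7 marker lists (horizontal axis). Each point is 1 mouse, with hBD-2 mice in red at the left and PBS mice in dark blue at the right of each list, and open points for hBD-2 1 and hBD-2 3. The C1q, macrophage and fibroblast means are lower in all hBD-2 mice than in all PBS mice, and the epithelial means overlap. In the posterior colon list all hBD-2 mice lie above all PBS mice, with hBD-2 1 and hBD-2 3 highest, at 0.73 and 0.67.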

How the data were processed

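The authors deposited log2 expression values of 22203 probe sets, made with the R package oligo by the method RMA, per the submitters' processing notes, with no version. RMA corrects background, quantile-normalizes the arrays and gives 1 log2 value per probe set, so that a shift of all genes between mice would not be seen. No genome build was used for the array values, and none is named for them by the sources. In GEO's platform annotation 19572 probe sets had 1 gene symbol. The probe set with the highest mean was kept per gene, which left 19505 genes. Array medians were 6.77 to 6.82 log2 units. Precision is limited by the number of arrays.

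Differences were tested with limma 3.58.1 in R 4.3.3 (lmFit and eBayes, two-sided) on all genes, with Benjamini-Hochberg adjustment over them and a threshold of 0.05. The pipeline was tested on simulated arrays. Figures used matplotlib 3.10.9. Members, gene lists and the pair of arrays to leave out were chosen with earlier results of these data known. In each role group the 3 other complement genes with the lowest p were named, with others named after their values were seen (C4a, C1s1, C1rb, Csmd1, C2, C6, C7 and single markers). The planned naming of genes most like C3 could not be applied, and Cfd was the sole gene of its role group and was not analysed here. Same-numbered mice correlated at -0.15 to 0.24 in their deviations from group means, so replicate numbers were not taken as pairs.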

Additional observations from a re-analysis of the deposited data

Results flagged for a closer look

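Of 56 groups of 4 mice examined, 4 had a mouse far from the others, where chance flags about 1 in 20. PBS 3 stood low for Cfb (8.29, the others 8.53 to 8.57) and for Cfp (8.56, the others 8.79 to 8.83), and high for Colec10 (5.80, the others 5.49 to 5.53). PBS 4 stood high for C8g (9.01, the others 8.46 to 8.55). Without PBS 3 the Colec10 difference was -0.51 and the Cfp difference -0.41.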

How the results depend on the processing

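The differences of the 8 members kept their sign under all 16 alternatives, and 125 of 128 differences stayed on the same side of the threshold. With an intensity trend and robust prior in limma, 91 genes passed (85 lower), among them 2 members, C1qa (-0.66, adjusted p = 0.0122) and C1qc (-0.55, adjusted p = 0.0296), and 3 other complement genes, where C1s2, C1ra and Itgax had adjusted p of 0.0270, 0.0191 and 0.0188. With array weights 68 genes passed, among them 1 member, C1qa (-0.72, adjusted p = 0.0378), and 2 other complement genes. Leaving out the lowest 25% of genes gave 16 genes, repeating the quantile normalization 4, and the replicate block 0 (2566 at an unadjusted p under 0.05), none of them members. The replicate block changed no call of a member. Without hBD-2 1 and hBD-2 3 limma passed 0 genes, with 2503 at an unadjusted p under 0.05. With single arrays left out 0 to 11 genes, 0 members and 0 to 1 other complement genes passed; the count over all genes was 0 without PBS 1, 2, 3 or 4, hBD-2 1 or hBD-2 3 (1678 to 2771 at an unadjusted p under 0.05) and 11 without hBD-2 2. Without hBD-2 4, 9 genes passed, and the 1 other complement gene among them was Itgax (-0.86, adjusted p = 0.0247 by limma). Differences of the members with single arrays left out lay between -0.72 (C1qa and C3ar1) and -0.038 (Cfb), and adjusted p for C1qa was 0.0632 to 0.264. Among the other complement genes named by lowest p, signs turned for C4bp (-0.16) and C8b (-0.032) without hBD-2 1 and hBD-2 3, and for Cd46 (0.00043) without hBD-2 4. Outside those named by that rule, C6 (0.25), C7 (0.12) and Vtn (0.031) also turned, from negative to positive, without hBD-2 1 and hBD-2 3. Leaving out hBD-2 3 put C4bp at 0.27, leaving out hBD-2 2 put it at 0.76, and leaving out hBD-2 1 put C8b at 0.065. With single arrays left out Cd46 ranged from -0.20 to 0.00043. The cause of these changes was not tested. The values carry no background level, so whether low probe sets such as Vsig4 and Colec10 were detected cannot be judged.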

Other observations

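C2, which encodes the protease of the classical convertase, is the gene next to Cfb on chromosome 17 in the RefSeq annotation (GRCm38.p6), and both varied together across the arrays. C2 stood at 7.61, 7.13, 7.39 and 6.94 in hBD-2 mice 1 to 4, against 7.29, 7.54, 7.42 and 7.21 in PBS mice 1 to 4. As for Cfb, hBD-2 1 and hBD-2 3 were the highest hBD-2 mice and hBD-2 2 and hBD-2 4 the lowest of all 8. The difference was -0.10 (SE 0.14) over all arrays and -0.33 (SE 0.12, adjusted p = 0.295 by limma) without hBD-2 1 and hBD-2 3. As a description over 8 arrays, Pearson's r between Cfb and C2 was 0.65 and Spearman's rho 0.64, and r with group means taken off was 0.62. Between Cfb and C4b, on the same chromosome, r was 0.12.

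C6 and C7, of the membrane attack complex, varied widely within both groups. C7 ranged from 5.76 to 6.86 in hBD-2 mice and from 5.71 to 7.00 in PBS mice. C6 stood at 5.79, 6.70, 5.53 and 6.52 in hBD-2 mice 1 to 4, against 6.79, 6.87, 5.86 and 5.89 in PBS mice 1 to 4. The high mice were hBD-2 2, hBD-2 4, PBS 1 and PBS 2. Hoxd10, of the posterior colon list, was also higher in these mice of each group, at 4.69, 5.93, 4.63 and 5.55 in hBD-2 mice 1 to 4, against 4.97, 5.07, 4.26 and 3.88 in PBS mice 1 to 4. The C6 difference was -0.22 (SE 0.31) over all arrays and 0.25 (SE 0.29) without hBD-2 1 and hBD-2 3. C2, C6, C7 and Hoxd10 were singled out here after their values were seen.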
